A study of Mus musculus with 27 samples.

Results

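The 9 genes described here code for the enzymes that make UMP and CTP and for the proteins that make phosphoribosyl pyrophosphate (PRPP). They are Cad, Dhodh, Umps, Ctps, Ctps2, Prps1, Prps2, Prpsap1 and Prpsap2. They were chosen by gene name, with earlier results of these data known. The study had already reported lower expression of pyrimidine synthesis genes with disulfiram in these data. All 9 genes were found among the 54532 genes that were counted in 27 libraries of mouse B cells. Splenic B cells of wild-type mice of the strain given as C57BL6 were purified by negative selection, cultured for 3 h and used for RNA-seq. The first experiment had 5 groups of 4 libraries, namely cells without a stimulus, cells given LPS, cells given IL-4+anti-CD40, and the same stimuli combined with disulfiram (DSF) at 1 μM. The second experiment had 1 library for each of the same 5 conditions and for each stimulus with 1 μM ibrutinib. Cells without an inhibitor received DMSO. LPS, a bacterial cell wall component, activates B cells without T cells, and IL-4 with an antibody to CD40 stands in for T cell help. DSF is an inhibitor of aldehyde dehydrogenase and ibrutinib is an inhibitor of Bruton's tyrosine kinase. The study describes the 4 samples per group of the first experiment as biologically independent. The sources used here do not say which libraries came from the same mouse, nor the age of these mice. The p-values therefore measure the spread between these samples, which may be technical.

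Pyrimidine nucleotides are built from glutamine, bicarbonate and aspartate. CAD, a single large protein with several enzyme activities, carries out the opening steps, DHODH oxidises dihydroorotate at the inner mitochondrial membrane, and UMPS joins orotate to PRPP and releases UMP. CTP synthase, made from Ctps or Ctps2, turns UTP into CTP with glutamine as the amino donor, and the CTPS1 isoform encoded by Ctps is known to be required for the proliferation of activated human lymphocytes. PRPP is made from ribose 5-phosphate and ATP by PRPS1 or PRPS2 and is also used for purine, NAD and salvage synthesis. PRPSAP1 and PRPSAP2 resemble the PRPS enzymes and bind them without known catalytic activity. Naive B cells are small and quiescent, and activation is accompanied by growth and by synthesis of RNA.

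The genes lie on 6 chromosomes of GRCm38. Cad (ENSMUSG00000013629) is on chromosome 5 from 31054780 to 31078479, Dhodh (ENSMUSG00000031730) on chromosome 8 from 109591343 to 109608673 and Umps (ENSMUSG00000022814) on chromosome 16 from 33954782 to 33967038. Ctps (ENSMUSG00000028633) is on chromosome 4 from 120539868 to 120570276, whereas Ctps2 (ENSMUSG00000031360) is on chromosome X from 162901238 to 163032508. Prps1 (ENSMUSG00000031432) and Prps2 (ENSMUSG00000025742) are both on chromosome X, from 140456613 to 140476140 and from 167346322 to 167382749. Prpsap1 (ENSMUSG00000015869) and Prpsap2 (ENSMUSG00000020528) are both on chromosome 11, from 116470845 to 116494202 and from 61729650 to 61762088. The 250 bases before the RefSeq start site are given for Cad, which fell most under DSF, for Umps, Ctps and Prps1, which rose with both stimuli and moved together, and for Prps2, which moved opposite to Prps1. They are from RefSeq on GRCm38.p6, 5′ to 3′ on the strand of the gene, at chr5:31054530-31054779 (+), chr16:33967039-33967288 (-), chr4:120570277-120570526 (-), chrX:140456353-140456602 (+) and chrX:167382750-167382999 (-). Capitals mark matches, on either strand, to the GC box letters GGGCGG, to CCAAT, to CCGGAAG, which ETS factors can bind, or to the E box letters CACGTG.
Cad: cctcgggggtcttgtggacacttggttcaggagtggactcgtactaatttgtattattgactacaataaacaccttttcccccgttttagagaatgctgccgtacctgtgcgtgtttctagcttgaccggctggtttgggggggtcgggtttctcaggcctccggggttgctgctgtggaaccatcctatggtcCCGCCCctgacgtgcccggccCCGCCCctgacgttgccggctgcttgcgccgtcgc
Umps: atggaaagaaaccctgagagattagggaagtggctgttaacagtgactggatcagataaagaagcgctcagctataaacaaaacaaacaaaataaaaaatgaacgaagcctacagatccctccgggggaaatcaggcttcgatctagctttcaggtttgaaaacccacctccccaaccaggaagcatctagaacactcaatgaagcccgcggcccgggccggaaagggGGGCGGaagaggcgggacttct
Ctps: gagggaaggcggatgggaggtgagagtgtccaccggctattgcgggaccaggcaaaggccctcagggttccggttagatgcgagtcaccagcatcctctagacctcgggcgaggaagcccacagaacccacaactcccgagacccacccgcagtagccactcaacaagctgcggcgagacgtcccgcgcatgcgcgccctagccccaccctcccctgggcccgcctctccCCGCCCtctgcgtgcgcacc
Prps1: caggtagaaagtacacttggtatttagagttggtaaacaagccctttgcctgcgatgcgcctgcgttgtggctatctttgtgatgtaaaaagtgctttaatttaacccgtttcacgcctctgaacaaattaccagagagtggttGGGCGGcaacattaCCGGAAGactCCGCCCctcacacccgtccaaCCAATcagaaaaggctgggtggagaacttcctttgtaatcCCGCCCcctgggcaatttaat
Prps2: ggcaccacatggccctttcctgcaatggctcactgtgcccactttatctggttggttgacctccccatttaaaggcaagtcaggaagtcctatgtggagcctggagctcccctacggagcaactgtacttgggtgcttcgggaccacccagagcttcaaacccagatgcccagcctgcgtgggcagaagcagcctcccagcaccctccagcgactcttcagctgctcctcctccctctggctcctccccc

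Among the 8 of the 9 genes that had an entry, the letters GGGCGG were found on either strand in a window of 250 bases before to 50 bases after a start site in 6, namely Cad, Umps, Ctps, Prps1, Prpsap1 and Prpsap2, and in 38.2% of 27025 genes. Prps1 held 4 matches and Cad held 2. The letters CACGTG, the E box that MYC and its relatives bind, were found in 0 of the 8 and in 8.09% of all genes. CCAAT was found in Ctps2, Prps1 and Prpsap2 and in 41.1% of all genes, and CCGGAAG was found in Prps1 and in 9.93%. The window of Prps2 held none of these 4 motifs. Matches of letters are a description and were not tested as binding sites.

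The libraries of the first experiment held between 17804851 and 23632992 counts, and each member had between 136 and 6818 counts in each library. All 6 markers of B cells were present in all groups. Their summed level was between 2380 and 3240 FPKM (fragments scaled by gene length and by library depth) in unstimulated cells, 1590 to 1620 with LPS, 1130 to 1200 with LPS and DSF, 1480 to 1710 with IL-4+anti-CD40 and 1240 to 1330 with IL-4+anti-CD40 and DSF. The 6 macrophage and monocyte markers summed to 318 to 439 FPKM in unstimulated cells and to 71.4 to 159 in the other groups, so they moved with the stimuli. T cell markers summed to 9.06 to 15.7 FPKM and NK cell markers to 0.665 to 3.24 FPKM over all groups, and plasma cell markers to 81.0 to 160 FPKM. Ly6g, a neutrophil marker, was at 0 in every library with IL-4+anti-CD40 and DSF, and Ncr1, an NK cell marker, in every library with LPS. The unstimulated libraries fell into pairs. Neutrophil markers summed to 65.0 and 62.6 FPKM in replicates 1 and 2 and to 13.5 and 19.5 in replicates 3 and 4, and erythroid markers to 3.73 and 2.97 against 15.6 and 17.7. The part of these cells in the results was not tested, and in bulk RNA fewer cells of a type and less RNA per cell cannot be told apart. The comparisons with unstimulated cells were therefore also made against replicates 1 and 2 alone and replicates 3 and 4 alone. This choice was made after seeing the data. Only part of these values is given. Sizes also moved with the pair used in comparisons for which no such value is printed, such as those of Umps and Prps1. The IL-4+anti-CD40 libraries split in the same way but less. The SD over genes of log2 differences was 0.419 and 0.428 within these pairs and 0.492 to 0.572 between them. In unstimulated cells it was 0.352 and 0.389 within and 0.815 to 0.82 between pairs. Comparisons with IL-4+anti-CD40 were not repeated by pair of its libraries.

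**Figure D1:**
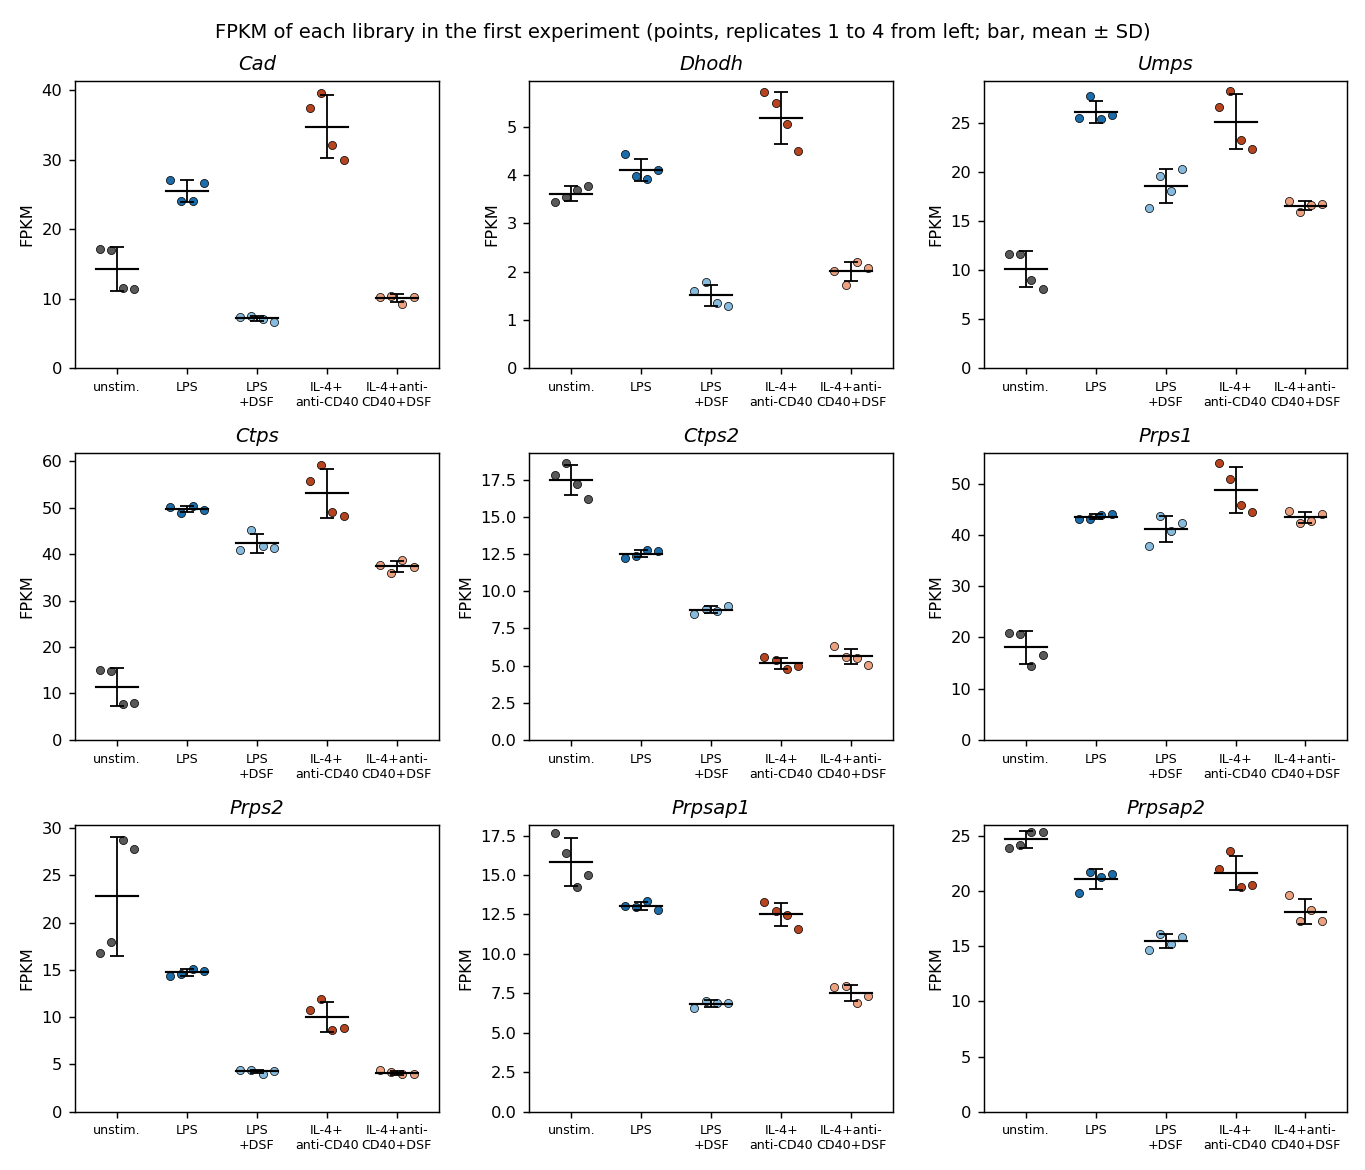
FPKM of the 9 genes in each of the 20 libraries of the first experiment (y axis, linear from 0) for the 5 groups (x axis), with libraries as points, means as bars and the SD of 4 libraries as whiskers. Cad and Dhodh are lowest with DSF, Umps, Ctps and Prps1 are lowest in unstimulated cells, and Ctps2, Prps2, Prpsap1 and Prpsap2 are highest in unstimulated cells.

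Over the 5 groups of the first experiment the members followed 3 patterns. Cad and Dhodh rose with both stimuli, Dhodh with LPS only by a call that depended on the scaling and the libraries used, and with DSF both lay below unstimulated cells. Umps, Ctps and Prps1 rose with both stimuli and stayed above unstimulated cells with DSF. Ctps2, Prps2 and Prpsap1 fell with both stimuli and Prpsap2 fell with LPS, and all 4 were below unstimulated cells when DSF was given. In counts, 5 of the 9 members were higher and 4 were lower with LPS than in unstimulated cells (adjusted p under 0.05 in the quasi-likelihood test of edgeR), beside 29.6% and 33.3% of all 14477 genes tested. With IL-4+anti-CD40, 5 were higher and 3 lower, beside 30.4% and 32.1% of 14433 genes. The median log2 fold change of the members was 0.20 with LPS and 0.54 under IL-4+anti-CD40, beside -0.05 and -0.04 over all genes tested. Scaling by total counts moved the median over all genes by -0.23 and -0.15 on the log2 scale and the shares of all genes called to 20.1% higher and 44.1% lower with LPS, and for IL-4+anti-CD40 to 23.9% and 38.6%.

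Cad, the gene of the opening steps, was at 17.1, 16.9, 11.6 and 11.5 FPKM in the 4 unstimulated libraries, at 27.0, 24.1, 24.1 and 26.6 with LPS, and at 37.4, 39.7, 32.1 and 29.9 under IL-4+anti-CD40. Every stimulated library lay above every unstimulated one, and the IL-4+anti-CD40 libraries lay above the LPS libraries. Between the stimuli the difference was 0.40 on the log2 scale (SE 0.08, adjusted p = 0.00214 from edgeR). Against unstimulated replicates 1 and 2 alone the rise of Cad was 0.60 with LPS and 1.03 under IL-4+anti-CD40, and against replicates 3 and 4 alone it was 1.17 and 1.62. With DSF, Cad was at 7.33, 7.49, 7.13 and 6.64 FPKM in LPS-stimulated cells and at 10.3, 10.4, 9.20 and 10.2 in IL-4+anti-CD40-stimulated cells. All 8 DSF libraries lay below all 4 unstimulated libraries. The log2 fold change against unstimulated cells was -0.99 (SE 0.14, adjusted p = 0.000217 from edgeR) with LPS and DSF and -0.50 (SE 0.14, adjusted p = 0.0123) with IL-4+anti-CD40 and DSF. The latter was -0.20 against unstimulated replicates 3 and 4 alone and -0.78 against replicates 1 and 2 alone.

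Dhodh, the mitochondrial step, was at lower FPKM than Cad. The length behind its FPKM was 6326 bases, whereas its longest coding transcript has 2039, so FPKM may understate its level. Dhodh was at 3.44, 3.55, 3.70 and 3.78 FPKM in unstimulated cells, at 4.43, 3.99, 3.92 and 4.11 with LPS and at 5.72, 5.50, 5.05 and 4.49 under IL-4+anti-CD40. The LPS libraries lay just above the unstimulated ones, where the log2 fold change was 0.20 (SE 0.07, edgeR, adjusted p = 0.0417). It was -0.03 with total counts as library size, and the call was lost with a replicate block (adjusted p = 0.103), with limma, in the fit of all 20 libraries, with all genes of any count, and without unstimulated replicate 1, 2 or both or LPS replicate 1, 2 or 4. Under IL-4+anti-CD40 the log2 fold change was 0.54 (SE 0.10). DSF left 1.60, 1.78, 1.36 and 1.29 FPKM with LPS and 2.02, 1.73, 2.20 and 2.08 under IL-4+anti-CD40, all below unstimulated cells. Against unstimulated cells Dhodh fell by 1.26 (SE 0.12) with LPS and DSF and by 0.84 (SE 0.10) with IL-4+anti-CD40 and DSF on the log2 scale.

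Umps, which joins orotate to PRPP, was at 11.7, 11.6, 9.02 and 8.06 FPKM in unstimulated cells. It rose to 25.5, 27.8, 25.4 and 25.8 with LPS and to 26.6, 28.2, 23.3 and 22.3 under IL-4+anti-CD40. The log2 fold change was 1.39 (SE 0.11) and 1.34 (SE 0.13), and the stimuli did not differ beyond the spread (-0.11, SE 0.07, adjusted p = 0.254 from edgeR). With DSF, Umps was at 16.3, 19.6, 18.1 and 20.2 FPKM in LPS-stimulated cells and at 17.0, 15.9, 16.6 and 16.7 in IL-4+anti-CD40-stimulated cells. These libraries lay between the unstimulated and the stimulated ones with no overlap. DSF lowered Umps by 0.47 (SE 0.06) and 0.62 (SE 0.07) on the log2 scale, and it stayed 0.89 (SE 0.13) and 0.73 (SE 0.12) above unstimulated cells.

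The genes of CTP synthase moved in opposite directions under the stimuli. Ctps was at 15.0, 14.8, 7.72 and 8.04 FPKM in unstimulated cells, at 50.1, 48.8, 50.3 and 49.4 with LPS and at 55.8, 59.2, 49.1 and 48.1 under IL-4+anti-CD40. It had the largest rise of the members under both stimuli, and the log2 fold change was 2.14 with LPS (SE 0.22, edgeR, adjusted p = 5.21e-05) and 2.24 under IL-4+anti-CD40 (SE 0.23, adjusted p = 4.64e-05). Against unstimulated replicates 1 and 2 alone these were 1.76 and 1.83, and against replicates 3 and 4 alone 2.69 and 2.77. Ctps2, by contrast, was at 17.8, 18.6, 17.2 and 16.2 FPKM in unstimulated cells, at 12.2, 12.4, 12.8 and 12.7 with LPS and at 5.55, 5.35, 4.75 and 4.94 under IL-4+anti-CD40. Its libraries did not overlap between the 3 groups, and the decrease was 0.46 (SE 0.05) with LPS and 1.74 (SE 0.08) under IL-4+anti-CD40 on the log2 scale. The IL-4+anti-CD40 libraries were lower than the LPS libraries by 1.33 (SE 0.06, adjusted p = 8.75e-09 from edgeR).

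The share of Ctps2 in the summed FPKM of Ctps and Ctps2 was 54.2%, 55.6%, 69.0% and 66.9% in the unstimulated libraries. It was between 19.6% and 20.4% with LPS and between 8.28% and 9.31% under IL-4+anti-CD40. Thus Ctps2 gave the larger part of the transcripts per length in unstimulated cells and the smaller part after 3 h with either stimulus. The difference from unstimulated cells was -41.3 percentage points with LPS and -52.6 under IL-4+anti-CD40 (exact two-sided permutation test, 4 against 4 libraries, p = 0.0286 in each, the smallest that the design allows, and 0.0343 after adjustment over 12 tests of shares). With DSF the share fell from 20.1% ± 0.337 (SD, n = 4) to 17.2% ± 0.671 in LPS-stimulated cells and rose from 8.87% ± 0.437 to 13.1% ± 1.07 in IL-4+anti-CD40-stimulated cells (exact permutation test, adjusted p = 0.0343 in each). The fall under LPS was not seen in the second experiment, which has 1 library per condition. There Ctps fell further than Ctps2 with DSF under LPS (log2 ratios -1.34 and -0.69), so the share rose under both stimuli.

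The genes of PRPP synthetase also moved in opposite directions. Prps1 was at 20.9, 20.7, 14.4 and 16.5 FPKM in unstimulated cells, at 43.2, 43.1, 43.9 and 44.1 with LPS and at 54.0, 50.9, 45.8 and 44.4 under IL-4+anti-CD40. The log2 fold change was 1.28 (SE 0.11) and 1.45 (SE 0.13). Prps2 was at 16.8, 18.0, 28.7 and 27.7 FPKM in unstimulated cells, at 14.4, 14.6, 15.1 and 14.9 with LPS and at 10.7, 11.9, 8.66 and 8.82 under IL-4+anti-CD40. The groups did not overlap, and the log2 fold change was -0.62 (SE 0.18, adjusted p = 0.0162 from edgeR) and -1.17 (SE 0.21, adjusted p = 0.00107). The size of this decrease rested on which unstimulated libraries were used, with -0.21 for LPS and -0.79 for IL-4+anti-CD40 against replicates 1 and 2 alone, and -0.91 and -1.47 against replicates 3 and 4 alone.

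Prps2 made up 44.4%, 46.5%, 66.6% and 62.7% of the summed FPKM of Prps1 and Prps2 in the unstimulated libraries, between 25.0% and 25.6% with LPS and between 15.9% and 19.0% under IL-4+anti-CD40. The share differed from unstimulated cells by -29.8 and -38.1 percentage points (exact permutation test, adjusted p = 0.0343 in each). DSF lowered it further, to between 8.91% and 10.4% with LPS and to between 8.26% and 9.01% under IL-4+anti-CD40 (difference -15.9 and -8.30 percentage points, exact permutation test, adjusted p = 0.0343 in each). Neither stimulus moved the share of Prpsap2 in the sum of Prpsap1 and Prpsap2 beyond the spread between libraries. It was 61.0% ± 2.99 in unstimulated cells, 61.8% ± 1.14 with LPS and 63.4% ± 1.46 under IL-4+anti-CD40 (SD, n = 4, exact permutation test, adjusted p = 0.686 and 0.281). The length behind the FPKM was 3407 bases for Prpsap1 and 1962 for Prpsap2, whereas their longest coding transcripts have 1841 and 1837. FPKM may therefore understate Prpsap1, and this share does not show which of the 2 genes has more transcripts.

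**Figure D2:**
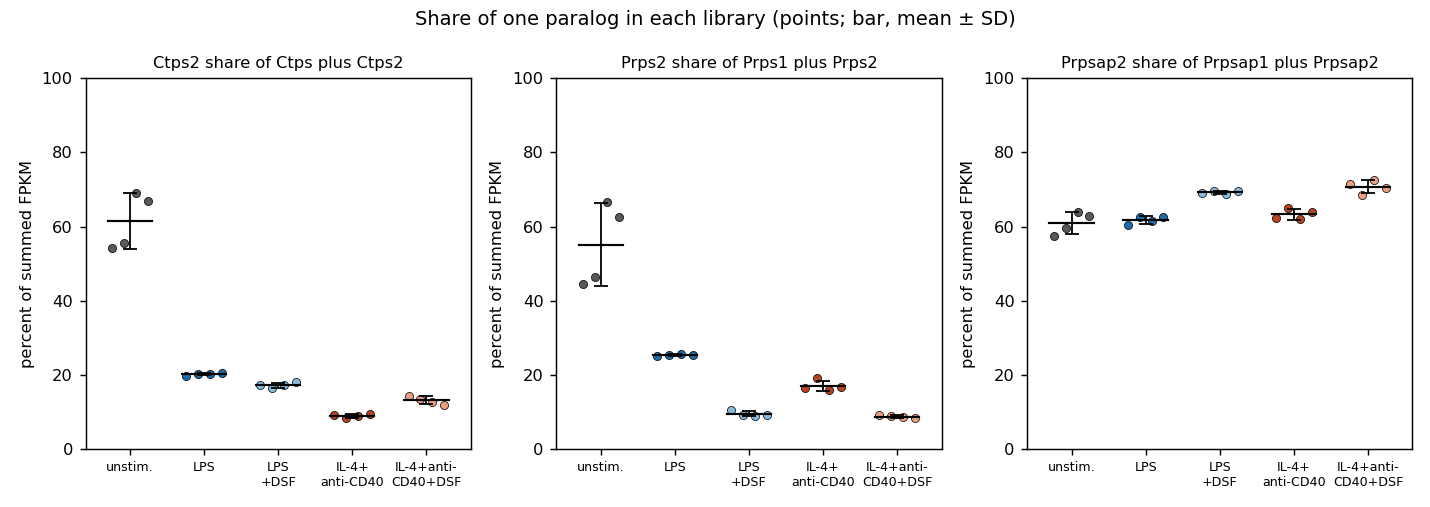
Share of Ctps2, Prps2 and Prpsap2 in the summed FPKM of each pair of paralogs (y axis, percent, 0 to 100) for the 5 groups of the first experiment (x axis), with libraries as points and the mean and SD of 4 libraries as bars and whiskers. The shares of Ctps2 and Prps2 lie above 44% in each unstimulated library and below 26% in each stimulated library, whereas that of Prpsap2 stays between 57.5% and 72.7%.

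The genes of the associated proteins moved less. Prpsap1 was at 17.6, 16.4, 14.2 and 15.0 FPKM in unstimulated cells, at 12.8 to 13.3 with LPS and at 11.6 to 13.3 under IL-4+anti-CD40. It fell by 0.26 (SE 0.07) and 0.32 (SE 0.08) on the log2 scale. The former decrease was 0.13 (adjusted p = 0.051 from edgeR) against unstimulated replicates 3 and 4 alone. Prpsap2 was at 23.9 to 25.4 FPKM in unstimulated cells, at 19.8 to 21.7 with LPS and at 20.3 to 23.6 under IL-4+anti-CD40. Its log2 fold change was -0.22 (SE 0.06, adjusted p = 0.0114 from edgeR) with LPS and -0.17 (SE 0.08, adjusted p = 0.0829) under IL-4+anti-CD40. The latter did not pass the threshold, but did against unstimulated replicates 3 and 4 alone (-0.20, adjusted p = 0.0479) and with total counts, limma, the fit of all 20 libraries or at least 10 counts in every library.

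DSF given with a stimulus lowered 8 of the 9 members in LPS-stimulated cells, beside 36.0% of all 14154 genes tested, and 8 of 9 in IL-4+anti-CD40-stimulated cells, beside 31.6% of 14275. It raised 0 of 9 in either case, beside 35.1% and 30.1% of all genes (edgeR at an adjusted p under 0.05, and also 0 at an unadjusted p under 0.05 and with DESeq2). The median log2 fold change of the members was -0.50 and -0.62, beside 0.0019 and -0.02 over all genes. The members were chosen with earlier results of these data known, so these shares describe the set and do not test it. The 6 B cell markers moved with DSF as well, with 6 lower under LPS, and 4 lower and 1 higher under IL-4+anti-CD40. Of the 6 macrophage and monocyte markers 3 were higher and 1 lower under LPS, and 3 higher and 0 lower under IL-4+anti-CD40, where their sum was between 94.2 and 113 FPKM without DSF and between 114 and 159 with it. Under LPS the sum was between 71.4 and 81.8 FPKM without and between 77.3 and 80.6 with DSF. Of the 4 plasma cell markers 3 were higher and 1 lower under LPS, and 2 higher and 0 lower under IL-4+anti-CD40. Of the tested neutrophil markers 2 and 1 of 4 were higher and 0 lower. The part of these markers in the result was not tested. With total counts as library size the median over all genes moved by -0.21 and -0.15 and the shares of all genes to 24.5% higher and 47.2% lower with LPS, and for IL-4+anti-CD40 to 22.9% and 40.9%. Cad fell by 1.81 under both stimuli (SE 0.05 with LPS and 0.08 under IL-4+anti-CD40). Dhodh fell by 1.43 (SE 0.09) and 1.39 (SE 0.10). The DSF libraries of both genes lay below all libraries of the other 3 groups.

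Under LPS, DSF lowered Prps2 nearly as far as Cad. It was at 4.38, 4.36, 3.99 and 4.29 FPKM with LPS and DSF and at 4.42, 4.15, 4.01 and 3.97 under IL-4+anti-CD40 and DSF, a log2 fold change of -1.77 (SE 0.06) and -1.30 (SE 0.10) against the stimulus alone. Although the stimuli alone left Prps2 at different levels, the DSF libraries of both stimuli overlapped. Against unstimulated cells Prps2 was lower by 2.42 (SE 0.19) and 2.45 (SE 0.19), the largest differences among the members. Unstimulated Prps2 was at 16.8 and 18.0 FPKM in replicates 1 and 2 and at 28.7 and 27.7 in replicates 3 and 4. The size of these differences therefore rested on which pair was used. Prps1, in contrast, was at 37.9, 43.8, 40.8 and 42.3 FPKM with LPS and DSF, overlapping the LPS libraries (log2 fold change -0.06, SE 0.05, adjusted p = 0.232 from edgeR, and -0.27 with an adjusted p of 8.2e-06 with total counts as library size, and also called when all genes with any count were kept). With IL-4+anti-CD40 and DSF it was at 44.6, 42.4, 42.8 and 44.1 FPKM, at a log2 fold change of -0.19 (SE 0.06) and an adjusted p of 0.0246 from edgeR. It did not pass the threshold with limma on log2(FPKM + 0.1), in the fit of all 20 libraries, or without IL-4+anti-CD40 replicate 1 or 2 or without IL-4+anti-CD40 and DSF replicate 2 or 3.

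Prpsap1 was at 6.55 to 7.04 FPKM with LPS and DSF and at 6.87 to 7.96 with IL-4+anti-CD40 and DSF. It fell by 0.91 (SE 0.06) and 0.76 (SE 0.07), and Prpsap2 fell by 0.43 (SE 0.06) and 0.28 (SE 0.07). The share of Prpsap2 in their sum rose with DSF to 69.3% ± 0.408 and 70.7% ± 1.79 (SD, n = 4, exact permutation test, adjusted p = 0.0343 in each). Ctps fell by 0.21 (SE 0.04) with LPS, from 48.8 to 50.3 FPKM down to 40.9 to 45.2, and by 0.52 (SE 0.07) with IL-4+anti-CD40, from 48.1 to 59.2 down to 35.8 to 38.7. The former call was lost in the fit of all 20 libraries (adjusted p = 0.203). Ctps2 was at 8.48, 8.80, 8.67 and 9.03 FPKM with LPS and DSF, below all LPS libraries, and at 6.31, 5.59, 5.52 and 5.06 under IL-4+anti-CD40 and DSF, where it overlapped the libraries without DSF. The log2 fold change was -0.50 (SE 0.05) and 0.11 (SE 0.08, adjusted p = 0.302 from edgeR), the latter -0.04 with total counts as library size and called at 0.17 in the fit of all 20 libraries.

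**Figure D3:**
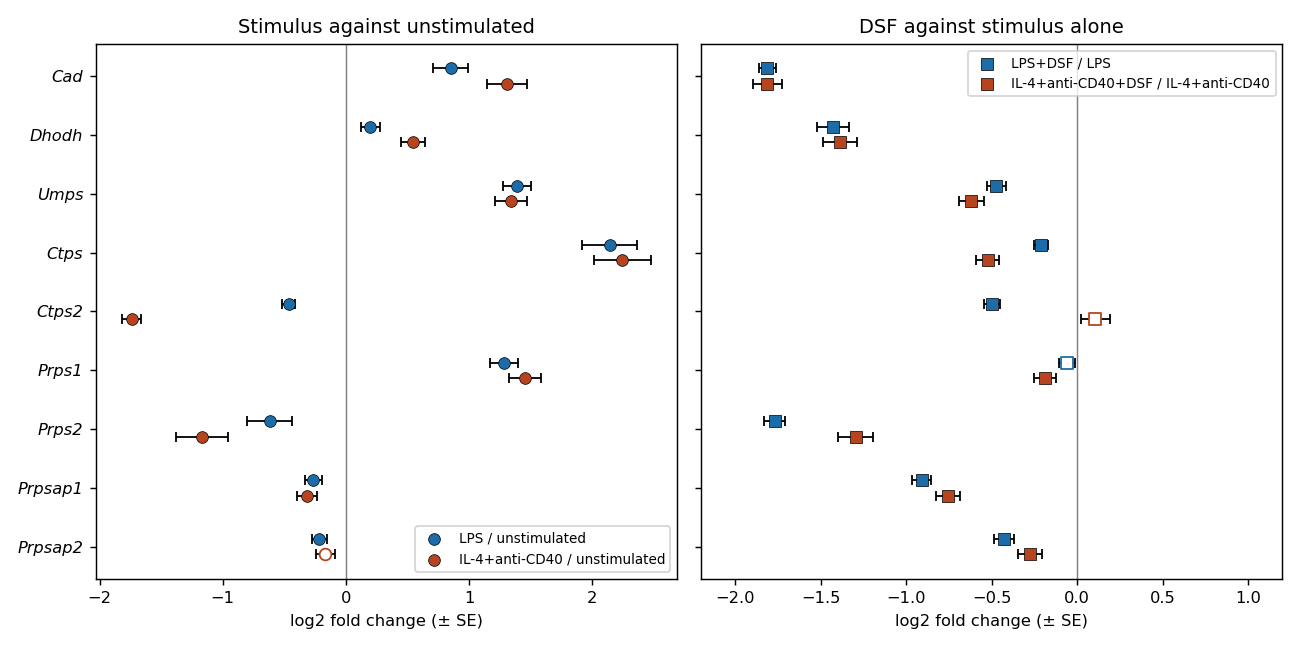
Log2 fold change with its SE (x axis) of each member (y axis) for each stimulus against unstimulated cells (left, circles) and for DSF against the stimulus alone (right, squares), blue for LPS and red for IL-4+anti-CD40, with open symbols for an adjusted p of 0.05 or more. Cad lies at -1.81 with DSF under both stimuli, while Ctps2 and Prps2 lie further left under LPS than under IL-4+anti-CD40 in the right panel.

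The DSF effects under the 2 stimuli were tested against each other, and 3 of the 9 members passed, with 2 higher and 1 lower, beside 6.96% and 7.92% of all 15130 genes tested. Ctps2 (0.61, SE 0.09, adjusted p = 0.00011 from edgeR) and Prps2 (0.48, SE 0.12, adjusted p = 0.00943) had the higher value under IL-4+anti-CD40, and Ctps (-0.31, SE 0.08, adjusted p = 0.0143) fell more there. In the fit of all 20 libraries Ctps2 alone passed. The difference was 0.0054 (SE 0.11) for Cad and 0.04 (SE 0.14) for Dhodh. Between LPS and IL-4+anti-CD40 without DSF, Cad and Dhodh were higher and Ctps2 and Prps2 lower with IL-4+anti-CD40, which is 2 higher and 2 lower of the 9 members beside 17.3% and 22.3% of 14078 genes. With total counts as library size 4 members were higher, and the shares of all genes were 33.5% higher and 17.2% lower.

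Against unstimulated cells, which are shared by these comparisons, LPS with DSF left Umps, Ctps and Prps1 higher and the other 6 members lower, beside 34.3% and 37.3% of 14663 genes. IL-4+anti-CD40 with DSF also left Umps, Ctps and Prps1 higher and the other 6 lower, beside 33.4% and 35.3% of 14678 genes. Ctps was 1.90 (SE 0.23) and 1.73 (SE 0.22) above unstimulated cells, and Prps1 was 1.19 (SE 0.12) and 1.27 (SE 0.12) above them. With total counts as library size the median over all genes moved by -0.41 and -0.31 in these comparisons.

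Across the 20 libraries of the first experiment the members formed blocks of like pattern, given here as a description, since the libraries share their groups. Cad and Dhodh had a Pearson correlation of 0.93 on the log2 CPM scale. Ctps and Prps1 had 0.98, Umps and Ctps 0.94, and Umps and Prps1 0.89. Prps2 had 0.94 with Prpsap1 and 0.91 with Prpsap2. The first and last of these blocks were not separate. Dhodh had 0.85 with Prpsap1, 0.80 with Prpsap2 and 0.77 with Prps2, and Cad had 0.70 with Prpsap1, 0.59 with Prpsap2 and 0.55 with Prps2. The paralogs Ctps and Ctps2 had -0.64 and Prps1 and Prps2 had -0.63, whereas Prpsap1 and Prpsap2 had 0.91.

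**Figure D4:**
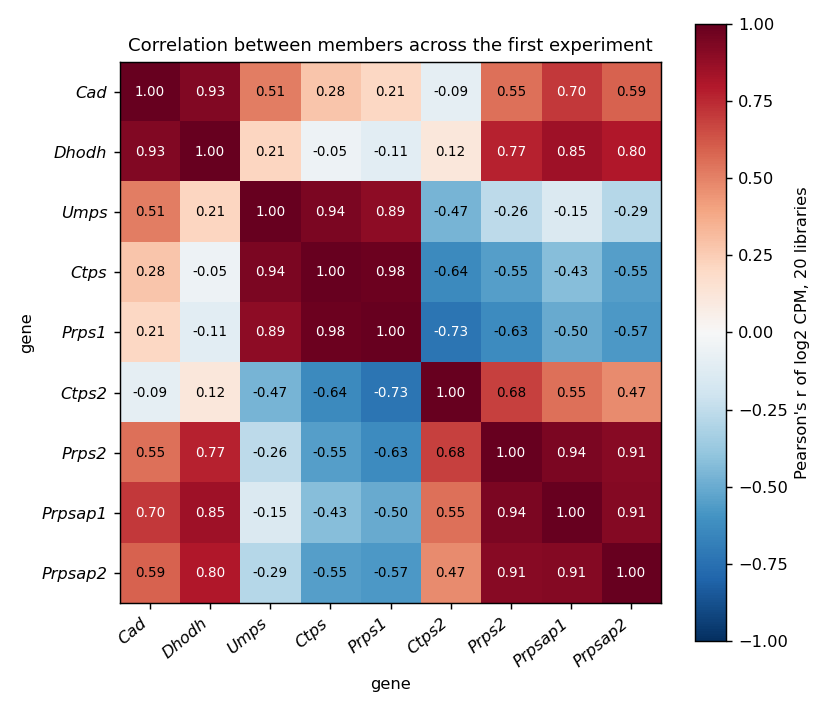
Pearson correlation of log2 CPM between the 9 members (both axes) over the 20 libraries of the first experiment, coloured from -1 (blue) to 1 (red). Cad with Dhodh, Umps with Ctps and Prps1, and Prps2 with Prpsap1 and Prpsap2 form blocks at 0.89 or above, while Ctps2 is negatively correlated with Umps, Ctps and Prps1.

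Of 15566 genes, those with the pattern most like Cad were Mthfd1 (0.99), which interconverts one-carbon folates, Vps33b (0.99), Arfip2 (0.98), Dhx29 (0.98) and Tprn (0.98). Those most like Dhodh were Ddx55, Tsfm and Xrcc6, at 0.98 to 0.99. For Umps they were Prmt5, an arginine methyltransferase, Ppat, the PRPP-using first enzyme of purine synthesis, and Grwd1, each at 0.99. Ctps was most like Wdr5, Ddx21 and Ntmt1, each at 0.996 or above, and Prps1 was most like Eif3d, Nhp2 and Strap, each at 0.99. Prps2 was most like Lynx1 (0.99), B4galnt1 (0.98) and Tcf3 (0.98), the last a transcription factor of the B lineage. Ctps2 was most like Arhgef3 (0.99), Flt3 (0.98) and Serp1 (0.98), Prpsap1 was most like Zfyve16, Topbp1 and Commd3 (0.98 each), and Prpsap2 was most like Rbfa, Mcm4 and Zfp362 (0.98 each).

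The second experiment gave DSF and ibrutinib side by side, with 1 library per condition and therefore no test. Against its unstimulated library LPS raised 3 members by 2-fold or more, namely Umps (log2 ratio 1.37), Ctps (1.87) and Prps1 (1.26), beside 8.62% of 14275 genes, and lowered 0, beside 9.88%. IL-4+anti-CD40 raised Cad (1.15), Umps (1.28), Ctps (2.10) and Prps1 (1.42), beside 10.7%, and lowered Ctps2 (-1.80), beside 13.7%. The small decrease of Prpsap2 in the first experiment was not seen here, with log2 ratios of 0.05 with LPS and 0.12 under IL-4+anti-CD40. Those of Prpsap1 were -0.22 and -0.08. Cad was at 15.8 FPKM in unstimulated cells, 24.2 with LPS and 35.2 under IL-4+anti-CD40, and DSF left 3.49 and 3.86. The log2 ratios of DSF to the stimulus alone were -2.78 and -3.17. Dhodh went from 3.35 to 0.76 FPKM with LPS and from 4.39 to 0.586 under IL-4+anti-CD40, with log2 ratios of -2.11 and -2.86. In this experiment Umps, Ctps and Prpsap1 fell by 2-fold or more as well. Umps had log2 ratios of -1.56 and -1.39, Ctps of -1.34 and -1.68, and Prpsap1 of -1.67 and -1.49. Umps was at 7.63 FPKM with LPS and DSF and at 8.15 with IL-4+anti-CD40 and DSF. Both values lay below the unstimulated library at 8.78, unlike in the first experiment, whereas Ctps and Prps1 stayed above theirs. In total 6 of the 9 members were lower by 2-fold or more with DSF under each stimulus, namely these 3 with Cad, Dhodh and Prps2, beside 19.5% and 20.3% of all genes, and 7 with total counts as library size. DSF raised 0 of 9 by 2-fold, beside 20.3% and 21.9%.

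The members outside this group were Ctps2, Prps1 and Prpsap2. Ctps2 had a log2 ratio of -0.69 with LPS and 0.35 under IL-4+anti-CD40, so that its DSF library was again higher than the library without DSF under the latter stimulus. Prps1 had -0.62 and -0.64, and Prpsap2 had -0.86 and -0.93. With ibrutinib 0 of 9 members were lower by 2-fold, beside 2.47% and 1.69% of genes for the LPS and the IL-4+anti-CD40 comparison, and 0 were higher, beside 2.81% and 2.23%. Cad had log2 ratios of -0.60 and -0.51 with ibrutinib, Umps of -0.31 and -0.50, and Ctps of -0.37 and -0.45. Ctps2 was higher with ibrutinib, at 18.0 FPKM against 13.4 with LPS and at 7.62 against 5.61 under IL-4+anti-CD40 (log2 ratios 0.44 and 0.45). The ratios of Prps2, Prpsap1 and Prpsap2 with ibrutinib lay between -0.09 and 0.14. The median over all genes lay between -0.04 and 0.01 in these 4 comparisons, and with total counts as library size it was -0.34 and -0.25 with DSF. Moreover, the DSF libraries had the highest shares of mitochondrial counts, up to 2.53%, beside a lowest of 1.39% over the 7 libraries. Cell type markers moved with DSF there too. Of 5 erythroid markers with a ratio, 3 were higher by 2-fold or more and 0 lower under each stimulus, beside 20.3% and 21.9% of all genes higher. Of 6 macrophage and monocyte markers 1 and 2 were higher and 0 and 1 lower. Among them Itgam went from 13 to 651 counts under LPS and from 6 to 430 under IL-4+anti-CD40. The part of these differences in the ratios was not tested.

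**Figure D5:**
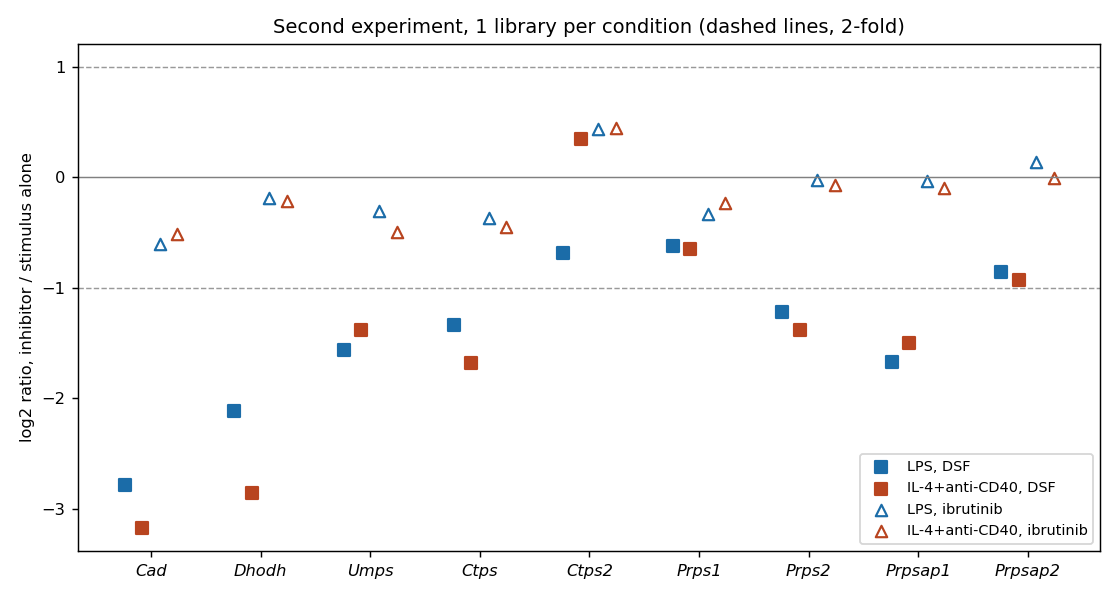
Log2 ratio of inhibitor to stimulus alone (y axis) for each member (x axis) in the second experiment, with 1 library per condition, DSF as filled squares, ibrutinib as open triangles, blue for LPS, red for IL-4+anti-CD40 and dashed lines at 2-fold. All triangles lie between -0.60 and 0.45, and the squares of Cad, Dhodh, Umps, Ctps, Prps2 and Prpsap1 lie below the lower line.

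The enzymes around the members were read from hand-written lists. Of 7 enzymes that use PRPP other than Umps, 5 were raised and 2 lowered by LPS, whereas 5 were raised and 1 lowered by IL-4+anti-CD40 (median log2 fold change 0.87 and 1.13). Nampt, the rate-limiting enzyme of NAD salvage, rose by 2.66 and 1.24 and Ppat rose by 1.59 and 1.64. DSF raised 2 and lowered 3 of 7 tested under LPS, and raised 0 and lowered 4 of 6 under IL-4+anti-CD40, where total counts as library size gave 1 and 5 under LPS and 0 and 5 under IL-4+anti-CD40. Hprt, which salvages hypoxanthine and guanine, rose by 0.23 and Qprt, of NAD synthesis, by 1.29 under LPS, and the call of Hprt was lost with total counts. In the second experiment Hprt was lower with DSF, at 107.6 FPKM with LPS and 86.3 with LPS and DSF. Qprt had only 8 counts in each of these libraries. All 6 PRPP users with a ratio there were lower with DSF under each stimulus. Lowered by DSF in the first experiment were, among others, Uprt, named for uracil salvage, by 1.24 and 1.33 and Aprt, which salvages adenine, by 0.79 and 0.80. Of 9 enzymes of ribose 5-phosphate supply, most of them in the pentose phosphate pathway, 3 rose and 2 fell with LPS. Under IL-4+anti-CD40, 2 rose and 2 fell. Total counts as library size gave 1 and 3 with LPS and 1 and 2 under IL-4+anti-CD40. Pgd rose by 0.91 and 0.69, whereas Pgm2 fell by 1.10 and 1.34. DSF lowered 5 and raised 2 of these 9 under each stimulus, with Pgm2 falling by 1.06 and 0.63 and Rpe by 0.58 and 0.56, and with Taldo1 rising by 0.54 and 0.65 and Pgd by 0.45 and 0.40. In the second experiment the log2 ratios of these last genes with DSF had the other sign, at -0.45 and -0.27 for Taldo1 and -0.79 and -0.96 for Pgd.

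Of 6 enzymes that use CTP to activate lipid or sugar precursors, 2 were higher and 3 lower with LPS, whereas 1 was higher and 3 were lower under IL-4+anti-CD40. In turn, 4 of 5 tested rose and 1 fell with DSF under each stimulus (median log2 fold change 0.55 and 0.63). Pcyt1a, which makes CDP-choline for phosphatidylcholine, rose by 1.00 and 1.10, Cds1, which makes CDP-diacylglycerol, rose by 0.69 and 1.08, and Pcyt2, which makes CDP-ethanolamine, fell by 0.22 and 0.39. With total counts as library size 4 rose under LPS and 3 under IL-4+anti-CD40. Among 6 and 7 tested kinases that carry UMP and CMP to the triphosphates, DSF lowered 4 and 3 and raised 1, where total counts as library size gave 5 and 4 lower and 1 and 0 higher. With DSF Nme7 fell by 1.27 and 0.82 and Nme6 by 0.75 and 0.68, and Nme2, whose reads can be shared with its paralog Nme1, rose by 1.28 and 0.58. The stimuli themselves raised 3 and 2 and lowered 1 and 2 of 7 tested.

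Cmpk2, a mitochondrial nucleotide kinase known to be induced by interferon, had different values in the experiments. It rose by 3.37 with LPS and fell by 2.31 under IL-4+anti-CD40 in the first, whereas its log2 ratio in the second was -1.13 and -1.98. Its unstimulated libraries were at 1.97 and 2.15 FPKM in replicates 1 and 2, at 9.32 and 8.71 in replicates 3 and 4 and at 30.5 in the second experiment.

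Of 7 tested genes that supply glutamine or aspartate, 2 rose with LPS, and 3 rose and 2 fell under IL-4+anti-CD40, where total counts as library size gave 1 higher and 2 lower with LPS and 2 higher and 2 lower under IL-4+anti-CD40. DSF lowered 4 and raised 2 with LPS and lowered 6 and raised 1 under IL-4+anti-CD40 (with total counts, 4 and 1, and 6 and 0). Slc25a12, a mitochondrial aspartate carrier, fell by 1.03 and 0.74 with DSF. Of 3 tested genes of UMP breakdown, LPS raised 2 and lowered 1, IL-4+anti-CD40 raised 1, and DSF raised 2 and lowered 1 in each case (1 and 1 with total counts). Nt5c3, a pyrimidine nucleotidase, rose by 2.76 with LPS in the first experiment, whereas its log2 ratio in the second was -0.02, at 16.8 FPKM with LPS and 17.1 without a stimulus. DSF lowered Nt5c3b by 0.68 and 0.90. Of 6 tested regulators, 4 rose and 1 fell with LPS, 3 rose and 1 fell under IL-4+anti-CD40, and DSF raised 1 and lowered 2 in each case. Myc, whose product is known to activate Cad transcription, rose by 3.65 with LPS and 2.41 under IL-4+anti-CD40, and DSF lowered it by 0.44 and 0.63. Mtor, a kinase in the pathway that phosphorylates CAD, rose by 0.73 and 0.83 and fell with DSF by 0.39 and 0.57, and Mapk3, another such kinase, fell by 0.96 and 1.26 and rose with DSF by 0.31 and 0.60. With total counts as library size DSF raised 0 and lowered 5 of the 6 tested regulators in LPS-stimulated cells, so the rise of Mapk3 there was not called, and raised 1 and lowered 4 under IL-4+anti-CD40. In the second experiment the log2 ratio of Mapk3 with DSF was -0.36 under LPS and 0.88 under IL-4+anti-CD40. For each stimulus against unstimulated cells and for DSF against each stimulus alone, no called gene of the lists around the members turned direction under that scaling. In the second experiment the log2 ratio of Myc with DSF was -2.19 and -2.24, where those of Cad were -2.78 and -3.17.

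Some reads of the members cannot be told apart from those of other genes. Prps1 shared 10.1% of its 50-base windows with Prps1l3, a like gene on chromosome 12 that overlaps Mipol1 and had between 24.1 and 45.0 FPKM in stimulated or DSF-treated libraries. Prps1l3 rose by 0.79 with LPS and 0.74 under IL-4+anti-CD40 and fell with DSF by 0.60 and 0.67, where Prps1 had log2 fold changes of -0.06 and -0.19. The difference between these genes was not tested. Prpsap2 shared 34.0% of its windows, chiefly with Gm13651, which had at most 11 counts in any library. Umps shared 4.83% and Ctps 1.28%, and the other members less than 1%. Umps, Ctps2, Prps2 and Prpsap1 overlap genes on the opposite strand, which had at most 12, 2, 2 and 58 counts in any library, and since the strand setting of the counting is not given in the sources used here, reads of antisense partners cannot be told apart from theirs.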

How the data were processed

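Gene counts and FPKM for 27 RNA-seq libraries of mouse splenic B cells were used. Per the labels and the study's methods, RNA was selected with poly-T beads, reads were cleaned with Fastp and aligned to mm10 with HISAT2 2.0.5, and the authors counted reads per gene with featureCounts 1.5.0-p3 and deposited raw counts. The deposited FPKM were computed by the authors from counts and gene length. The strand setting and the annotation release are not given in the sources used here.

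Counts of the first experiment (17804851 to 23632992 per library) went into the quasi-likelihood test of edgeR 4.0.16 in R 4.3.3, with TMM factors, low counts left out by filterByExpr and Benjamini-Hochberg adjustment over all genes, on the 8 libraries of each comparison, and on 16 libraries for the difference between DSF effects. SE is the absolute log2 fold change divided by the square root of F. Shares of paralogs used FPKM and an exact permutation test with 70 splits. The second experiment (16049295 to 24619776 counts) has 1 library per condition and gives log2 ratios of TMM CPM with a prior count of 2, among genes with a mean count of at least 10. Alternatives were DESeq2 1.42.0, its size factors, total counts, other filters, all 20 libraries in 1 fit, a replicate block, limma 3.58.1 on log2(FPKM + 0.1), and leaving out libraries. The edgeR, DESeq2 and limma fits were tried on simulated counts with known changes. These were independent draws modelled on stimulated libraries. They lacked the split into pairs of the unstimulated libraries, so they cannot show how the tests behave with it.

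The members, gene lists and tests were chosen with earlier results of these data known. All 9 members are named, with, of each other list, at most 2 genes per direction and comparison with the largest change past an adjusted p of 0.05, and the genes most correlated with each member. Not every gene within this rule is reported here. Replicate pairs differed beyond sampling noise, and counts limit precision by counting error only. Libraries were not paired by replicate number in the main tests. Correlations of deviations between libraries of the same number ran from -0.056 to 0.169. Such values cannot show whether these libraries shared a mouse or a day. Positions were read from a GRCm38 annotation.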

Additional observations from a re-analysis of the deposited data

Results flagged for a closer look

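The effect of DSF differed between the stimuli by a test of the difference itself for 3 members. The difference, IL-4+anti-CD40 minus LPS on the log2 scale, was 0.61 for Ctps2, where DSF lowered the level under LPS and the libraries overlapped under IL-4+anti-CD40. It was 0.48 for Prps2, which DSF left at 3.99 to 4.38 FPKM under LPS and at 3.97 to 4.42 FPKM under IL-4+anti-CD40 from higher levels with LPS alone than with IL-4+anti-CD40 alone. It was -0.31 for Ctps, which DSF lowered more under IL-4+anti-CD40. In the second experiment the log2 ratios with DSF were -0.69 and 0.35 for Ctps2, -1.34 and -1.68 for Ctps, and -1.22 and -1.38 for Prps2, with LPS and IL-4+anti-CD40, where there is no replicate. Among the 45 sets of 4 libraries formed by member and group, 0 held a library apart from the others by Dixon's criterion, which chance meets in about 1 of 20. This criterion looks for a single library and cannot see a split into pairs. Unstimulated Ctps, at 15.0, 14.8, 7.72 and 8.04 FPKM, had such a split.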

How the results depend on the processing

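The counts of members called kept within 1.5 times of the reported ones under DESeq2, its size factors, both filters, limma and the replicate block. With a replicate block the log2 fold change of Dhodh with LPS was 0.20 with an adjusted p of 0.103, and no other member's call changed. In the fit of all 20 libraries DSF raised 1 member under IL-4+anti-CD40, namely Ctps2 (0.17), and the difference between DSF effects was called higher for 1 and lower for 0 members. With total counts as library size 4 members were higher with IL-4+anti-CD40 than with LPS, and values that changed sign were -0.0268 for Dhodh with LPS, -0.0427 for Ctps2 with DSF under IL-4+anti-CD40, and, for IL-4+anti-CD40 against LPS, 0.0274 for Umps, 0.0249 for Prpsap1 and 0.1231 for Prpsap2. That last value for Prpsap2 was 0.0034 with DESeq2, 0.0033 with its size factors and 0.0368 with limma, and the difference between DSF effects for Cad was -0.0069 with at least 10 counts in every library. The cause was not tested. Leaving out 1 library at a time gave, with LPS, 4 to 5 members higher and 4 lower, under IL-4+anti-CD40 5 higher and 3 lower, 0 higher and 8 lower with DSF under LPS, 0 higher and 7 to 8 lower with DSF under IL-4+anti-CD40, 2 to 3 higher and 2 lower for IL-4+anti-CD40 against LPS, 3 higher and 6 lower with either stimulus and DSF against unstimulated cells, and 2 higher and 1 lower for the difference between DSF effects. The values near 0 ran from -0.0399 to 0.0177 for Prpsap2 (IL-4+anti-CD40 against LPS), and for the difference between DSF effects from -0.0574 to 0.074 for Cad and from -0.0237 to 0.1371 for Dhodh. The call of Prps1 with DSF under IL-4+anti-CD40 was lost without 4 of the 8 libraries and that of Dhodh with LPS without 5 of 8.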
